A study of Mus musculus with 2 samples.

Results

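The genes described here are 9 markers of the motile cilium, read in single-cell RNA sequencing of mouse thymus. They are the regulators Foxj1, Trp73 and Mcidas and the axoneme-associated genes Dynlrb2, Ccdc153, Tmem212, Dnah5, Dnah9 and Tppp3. They were taken by symbol from the 31053 genes of the count tables, and all 9 were found. The cells were medullary thymic epithelial cells (mTECs), sorted as positive for EPCAM and negative for Ly51 and captured with the 10x Genomics 3' chemistry. There were 2 libraries with 1 per genotype, so every difference between genotypes is a difference between 2 libraries without a replicate check, and no test was made. One was labelled Foxn1-Cre(+) Ikaros+/fl and the other Foxn1-Cre(+) Ikarosfl/fl. Both therefore carry the Cre transgene under Foxn1, a gene of thymic epithelium, and at least 1 floxed allele of Ikaros, which is the lymphoid transcription factor Ikzf1. How old the mice were, their sex and how many were pooled is not given in the labels. The names of the deposited matrices swap the genotypes, calling the library labelled +/fl a knockout and the other a control, so directions below follow the labels only.

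A motile cilium beats through a microtubule core, the axoneme, on which dynein arms act as motors. Cells with many such cilia line airways, brain ventricles and oviducts, and the medullary epithelium of the thymus holds small populations that resemble such peripheral cell types. In multiciliated cells Mcidas, with the related Gmnc, starts the programme that amplifies centrioles, Trp73 (p73) acts upstream of ciliary genes, and Foxj1 is the forkhead factor that switches on the axonemal genes. Among the axoneme genes, Dnah5 and Dnah9 encode heavy chains of the outer dynein arm and Dynlrb2 a light chain of the roadblock family. Ccdc153 is a coiled-coil protein, Tmem212 a membrane protein and Tppp3 a tubulin-binding protein, all used as ciliated-cell markers.

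Promoters are shown first, for some of the genes that were high together in ciliated cells and for Dnah5, which departed from them elsewhere. RefSeq promoter windows of GRCm38.p6, running from 250 bases before to 50 bases after the annotated start, were given for 7 of the 9 genes, and Foxj1 and Tppp3 are named only. Capitals mark GTTGCC, one arm of the X-box bound by RFX factors, searched on both strands. Dynlrb2 is on chr8:116504765-116505064 (plus strand), Ccdc153 on chr9:44240427-44240726 (plus strand), Mcidas on chr13:112993618-112993917 (plus strand) and Dnah5 on chr15:28203516-28203815 (plus strand).
Dynlrb2: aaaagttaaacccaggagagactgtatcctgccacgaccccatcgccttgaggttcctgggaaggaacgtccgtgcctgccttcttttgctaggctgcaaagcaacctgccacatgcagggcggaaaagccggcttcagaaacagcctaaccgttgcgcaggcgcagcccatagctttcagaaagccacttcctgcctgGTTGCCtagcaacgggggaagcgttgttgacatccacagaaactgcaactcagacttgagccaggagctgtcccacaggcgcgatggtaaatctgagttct
Ccdc153: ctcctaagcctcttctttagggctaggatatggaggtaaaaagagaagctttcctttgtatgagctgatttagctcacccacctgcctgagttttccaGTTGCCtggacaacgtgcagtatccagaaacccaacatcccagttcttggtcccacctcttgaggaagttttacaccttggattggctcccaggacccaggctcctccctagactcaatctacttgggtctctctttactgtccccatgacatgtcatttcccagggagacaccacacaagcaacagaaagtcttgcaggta
Mcidas: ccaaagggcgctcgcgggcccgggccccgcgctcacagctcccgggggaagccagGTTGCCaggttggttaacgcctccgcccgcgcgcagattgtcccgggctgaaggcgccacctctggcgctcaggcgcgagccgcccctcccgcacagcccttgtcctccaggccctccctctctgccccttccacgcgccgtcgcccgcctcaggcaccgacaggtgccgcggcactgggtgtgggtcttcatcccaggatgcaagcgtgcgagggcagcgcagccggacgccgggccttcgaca
Dnah5: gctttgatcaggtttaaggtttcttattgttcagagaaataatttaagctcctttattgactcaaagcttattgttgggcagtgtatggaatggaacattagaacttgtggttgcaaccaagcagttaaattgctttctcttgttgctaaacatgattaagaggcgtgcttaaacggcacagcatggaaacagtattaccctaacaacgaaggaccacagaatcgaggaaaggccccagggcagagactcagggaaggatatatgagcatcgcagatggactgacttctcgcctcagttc
This arm stood in 4 of the 8 windows of these genes (Dynlrb2, Ccdc153, Mcidas and 1 of the 2 windows of Trp73) and in 12.5% of all 32851 windows. The windows of Tmem212 and Dnah9, which are not printed, lacked the arm as that of Dnah5 did, so it does not set Dnah5 apart. The arm was 1 of 12 motifs searched and was chosen for display after the matches were seen. The looser arm GTNNCC stood in all 8 windows and in 88.2% of all, and the Myb motif AACNGNC in those of Dynlrb2 and Trp73 and in 32.8% of all. The forkhead core TAAACA was found for Dnah5 and Tmem212 and in 13.4% of all windows, while the longer forkhead form TGTTTAC was in no window of the 9 genes and in 3.65% of all. The E2F forms TTCCCGCC and GCGGGAA were found for Trp73 only, against 2.19% and 4.60% of all windows. No window of the 9 genes held the loose or the strict X-box of both arms at a fixed spacing of 2 bases (other spacings were not searched), the E2F form TTTGGCGC, the octamer ATGCAAAT or the E-box CACGTG, which stood in 1.29%, 0.298%, 0.514%, 1.74% and 7.15% of all windows. Several of these motifs overlap in sequence, and a match is a description of letters only.

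After quality filters and doublet removal, 4891 cells with 66675011 unique molecular identifiers (UMIs, counts of captured transcripts) remained in the library labelled +/fl and 7669 cells with 80897462 UMIs in that labelled fl/fl. Median depth was 10731 and 8187 UMIs per cell. The libraries shared 10 barcodes among kept cells. They also differed in sex-linked RNA: Xist stood at 1317 and 0.902 CPM (the UMIs of a gene scaled to a fixed total of UMIs), and Ddx3y at 0 (upper bound 0.0553) and 64.5 CPM, so sex and genotype label cannot be told apart. Ikzf1 itself was at 64.5 CPM under the label +/fl and at 37.7 CPM under the label fl/fl. The 3' reads need not cover the floxed exons, so this does not check the labels. Cells were clustered without the 9 genes and without 5 lists of cilium genes, and clusters were named from separate markers. Tuft-like cells made up 39.1% of the library labelled +/fl and 11.1% of that labelled fl/fl, and Aire-stage mTECs 16.6% and 32.6%. Intervals are 95% intervals and cover counting error only.

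The 9 genes came together in 1 small cluster of 75 cells, called Ciliated-like because all 23 of its markers, none of them among the 9, were met. It held 16 cells of the library labelled +/fl (0.327% of its cells, interval 0.187% to 0.531%) and 59 cells of that labelled fl/fl (0.769%, interval 0.586% to 0.991%). The sum of the 23 markers was 10095 and 8706 CPM in those cells, against 186 and 188 CPM in Aire-stage mTECs. Its leading genes were Dynlrb2 and Tmem212, ranks 1 and 2 of 20191 genes for the log2 ratio over other epithelial cells. All 9 genes were at least 2-fold higher there than in other epithelium, where 14.3% of all genes tested were. Since clusters are made from the same cells, this describes the cluster and tests nothing.

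Within the Ciliated-like cells, Foxj1 was in 75 of 75 cells with a median of 9 UMIs, a lowest value of 1 and a highest of 51. Dynlrb2 and Tppp3 were each in 74 cells, Ccdc153 in 66, Tmem212 in 62, Dnah5 in 57 and Dnah9 in 51. The other regulators were in a minority, Mcidas in 26 cells and Trp73 in 23. At least 3 of the 5 axoneme genes other than Tppp3 were detected together in 67 of these 75 cells and in 23 of 12485 cells elsewhere. All 9 were detected together in 8 Ciliated-like cells and in 1 cell outside. Detection of the rarer genes went with depth: the 23 cells with Trp73 had a median of 27754 UMIs and the cells without it 8217.

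**Figure D1:**
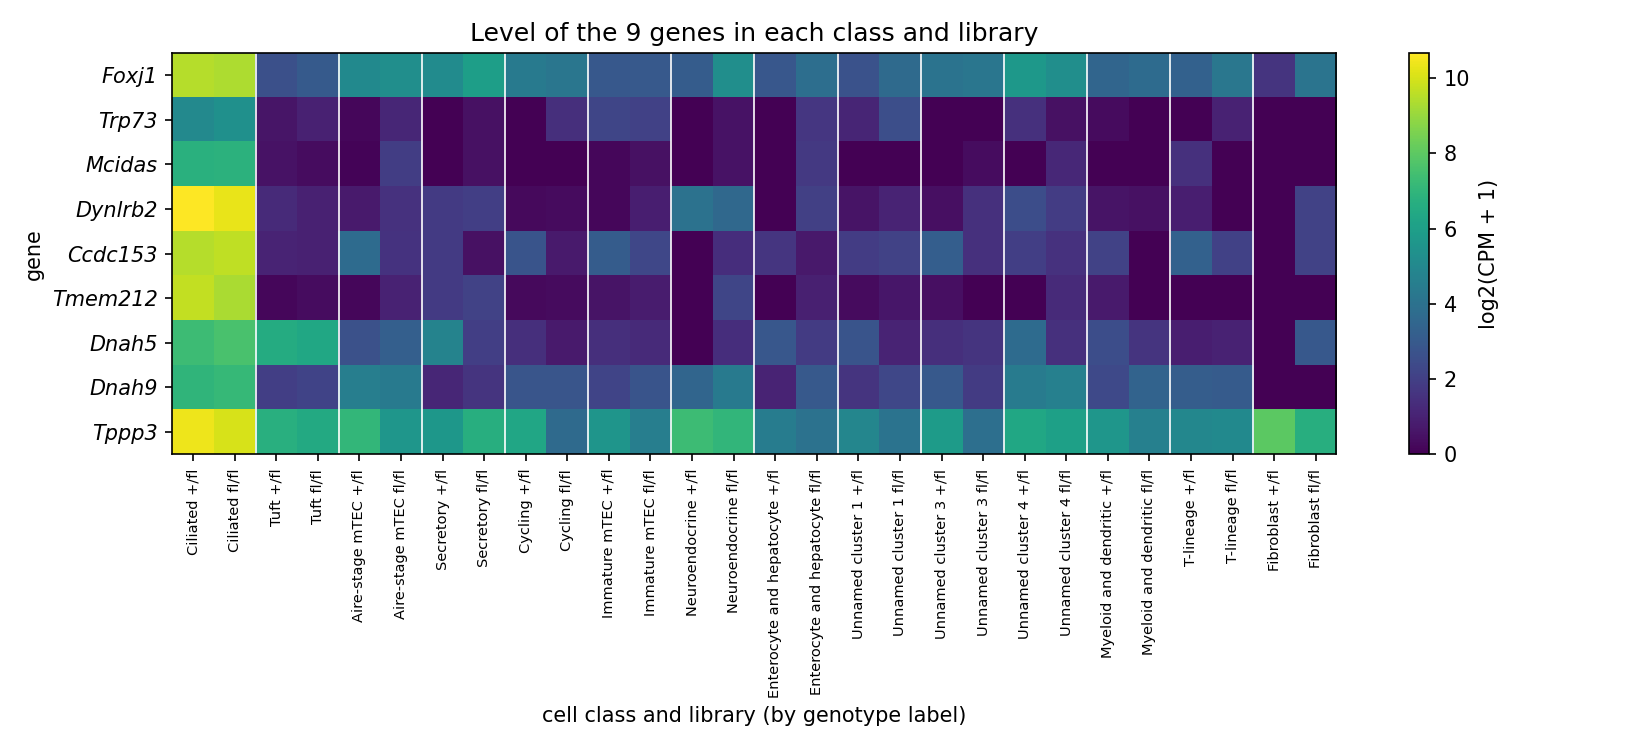
Level of each gene, as log2(CPM + 1), by cell class (columns, with both libraries side by side) and gene (rows); each square is a sum over all cells of the class in 1 library. All 9 rows are high in the Ciliated-like columns, and the Dnah5 row is also high in the Tuft-like columns, at 94.7 and 80.9 CPM.

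The genes differed in how far they were restricted to that cluster. Tmem212 had 90.1% of its UMIs in the 75 cells, Dynlrb2 88.2%, Ccdc153 65.4% and Mcidas 51.1%. By contrast Trp73 had 23.4% of its UMIs there, Foxj1 20.5%, Tppp3 12.3%, Dnah9 9.16% and Dnah5 6.76%. These last 5 genes were thus counted mostly in cells that are not Ciliated-like.

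Cells of the cluster also differed among themselves. The 26 cells with Mcidas were compared with the 49 without, a division chosen after the values were seen. Ccno and Deup1, which act in centriole amplification, were at 662 and 680 CPM in the Mcidas cells and at 53.9 and 129 CPM in the others. Plk4, the kinase that starts centriole duplication, was at 415 against 52.0 CPM and Myb at 310 against 121 CPM. Dynlrb2 was on the same side, at 1601 CPM (interval 1510 to 1697) against 1090 CPM. The other 5 axoneme genes were on the opposite side. Ccdc153 was at 302 CPM (263 to 345) in Mcidas cells and 1447 CPM in the rest, Tmem212 at 334 and 1187 CPM, Tppp3 at 431 and 2119 CPM, Dnah5 at 120 and 268 CPM and Dnah9 at 74.1 and 222 CPM. The order of the 2 sets was the same in each library for all 6 genes. For Ccdc153 it was 260 against 1886 CPM in the library labelled +/fl, and 327 against 1333 for that labelled fl/fl. Foxj1 differed less, at 620 CPM in Mcidas cells and 757 CPM in the rest. The Mcidas cells were deeper, with a median of 26551 against 8707 UMIs, and the part of depth in this division was not tested. The cluster as a whole also had all 8 Cycling markers in at least 10% of its cells. Their sum was 882 CPM, against 82.9 CPM in Aire-stage mTECs. The part of cycling cells in this division was not tested.

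**Figure D2:**
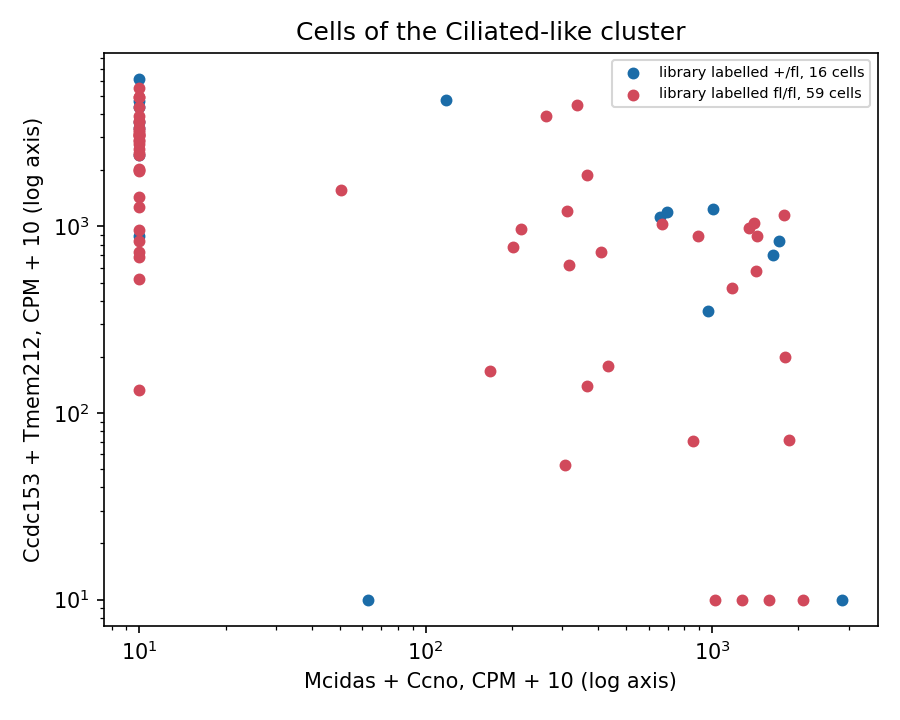
Each point is 1 Ciliated-like cell, with Mcidas plus Ccno on the x axis and Ccdc153 plus Tmem212 on the y axis, both in CPM with 10 added and on log axes. Of the 75 cells, the 38 without Ccno stand at the left edge, and points of both libraries (16 and 59 cells) lie on both sides.

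Foxj1 was found widely outside the cluster, in 1754 of 12485 cells. Thinned to 2000 UMIs per cell so that depth was equal, it was detected in 6.08% and 6.54% of Aire-stage mTECs (library labelled +/fl first, here and below), in 7.32% and 15.6% of Secretory-like cells and in 5.59% and 6.08% of Cycling cells. In Tuft-like cells it was in 0.434% and 1.40%. T-lineage cells had it in 2.38% and 4.03% and Immature mTECs in 1.75% and 1.06%. How much of such shares is background was not tested. Without thinning T-lineage cells had it in 8.60% and 9.42% (median depth 5837 and 3829 UMIs), and the Aire-stage shares were 30.4% and 24.0% at 19833 and 11173 UMIs. Secretory-like cells had 34.6 and 62.9 CPM of Foxj1 and unnamed cluster 4 had 50.9 and 37.5 CPM, against 708 and 664 CPM in Ciliated-like cells.

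Outside the cluster, 5 of the 6 axoneme genes, all but Dnah5, stood higher in cells with 4 or more Foxj1 UMIs than in cells with none. Cells with none of the 6 axoneme genes were 62.5% of those without Foxj1, 48.0% with 1 UMI, 34.2% with 2 to 3 and 21.4% with 4 or more. Dynlrb2 was at 0.920 CPM in the 10731 cells with no Foxj1 UMI, 1.51 CPM with 1 UMI, 2.27 CPM with 2 to 3 and 16.9 CPM in the 159 cells with 4 or more. Mcidas followed the same order, from 0.253 to 0.303, 1.05 and 21.2 CPM. In the bin with 4 or more, 9.43% of cells had Mcidas, so its level there rests on few cells. Their overlap with the Mcidas cells of Aire-stage cluster 10 described below was not counted. The last bin includes 31 cells with 8 or more Foxj1 UMIs, in which Mcidas was at 77.2 CPM and Dynlrb2 at 55.5 CPM. Dnah9 was at 9.17, 15.8, 19.9 and 26.2 CPM across the same bins, and Tppp3 at 62.2, 70.2, 93.8 and 154 CPM. Dnah5 did not share that order, being highest, 25.0 CPM, in cells without Foxj1 and at 8.32 CPM in cells with 4 or more. The bins pool all classes, and Tuft-like cells held 76.9% of all Dnah5 UMIs while 3.70% of them had Foxj1. The order within single classes was not tested. Median depth also went up along these bins, from 8209 to 23375 UMIs, and the bins were chosen after the data were seen.

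**Figure D3:**
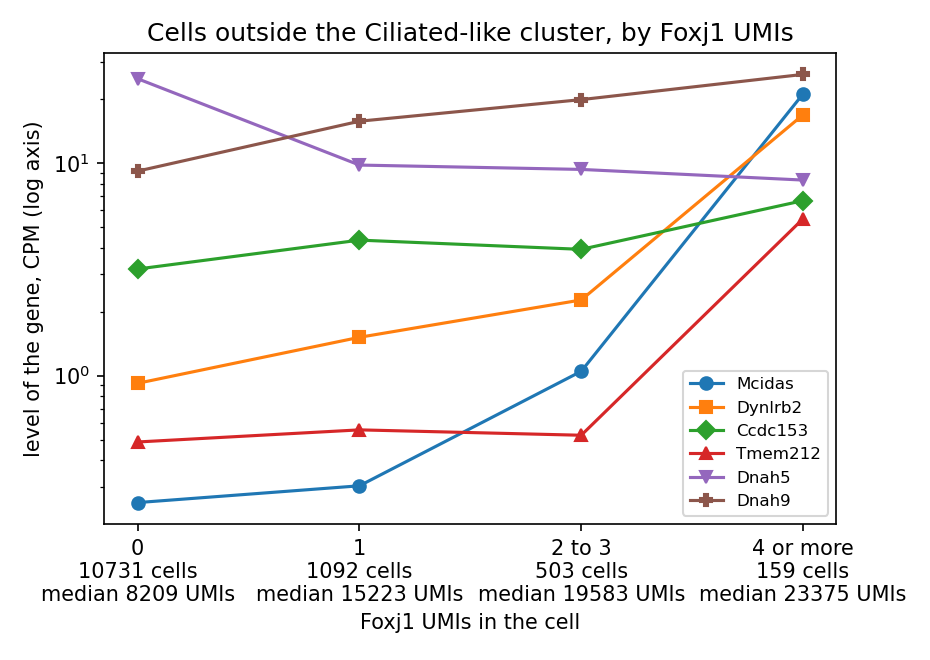
Level of 6 genes in CPM (log axis) in cells outside the Ciliated-like cluster, by the number of Foxj1 UMIs in the cell; each point is a sum over the 10731, 1092, 503 or 159 cells of a bin. Mcidas reaches 21.2 CPM and Dynlrb2 16.9 CPM in the last bin, while Dnah5 goes down from 25.0 CPM. The bins pool all classes, and Tuft-like cells held 76.9% of all Dnah5 UMIs.

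Cells with a regulator and none of the 6 axoneme genes numbered 811, of which 161 were in the library labelled +/fl and 650 in that labelled fl/fl. They were 26.5% and 48.5% of the cells with a regulator at full depth. After thinning to 2000 UMIs they were 63.0% (interval 54.0% to 71.4%) and 70.7% (65.8% to 75.2%). Cells with no regulator lacked all 6 axoneme genes more often, in 78.2% and 87.7% of cells at the same depth. The difference between the libraries was thus present in cells without regulators too. Outside the Ciliated-like cluster the shares among regulator cells were 70.2% and 81.2%. With Tppp3 left out of the axoneme genes the order of the libraries turned, at 84.3% and 79.7%. At full depth 717 of the 811 cells had Foxj1 alone, 65 Trp73 alone and 15 Mcidas alone, and 587 rested on a single regulator UMI. No Ciliated-like cell was among them at full depth.

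By class, 315 of the 811 cells were Aire-stage mTECs, 101 were Immature mTECs and 95 belonged to unnamed cluster 4. Secretory-like cells had the highest share, 21.2% of 260 cells, and Tuft-like cells the lowest of the larger epithelial classes, 1.01% of 2760. T-lineage cells stood at 6.06% of 231, at a median depth of 4313 UMIs against 12158.5 in Aire-stage mTECs. The part of background in these shares was not tested, and all are at full depth. Dnah5 and Tppp3 count as axoneme genes here and were in 30.8% and 42.7% of Tuft-like cells. Of Tuft-like cells, 95.7% had no regulator. Genes were ranked by their log2 ratio in the 811 cells over epithelial cells with none of the 9 genes other than Tppp3. The lower ratio of the 2 libraries was taken. The first 10 of 12234 genes were Cytl1, C1qa, Prph, S100a8, C1qc, C1qb, Rgs1, Mt3, Tbc1d4 and Ly86. S100a8, a calprotectin subunit, was at 302 and 641 CPM against 81.5 and 310 CPM, and Mt3, a metallothionein, at 41.8 and 108 against 18.7 and 43.5 CPM. C1qa, C1qb and C1qc encode complement C1q and are macrophage genes, and 33 of the 811 cells were Myeloid and dendritic. Restricted to epithelial clusters, C1qa was at 26.2 and 19.5 CPM and S100a8 at 357 and 651 CPM. The same restriction took Rgs1 from 82.5 to 1.84 CPM, Tbc1d4 from 118 to 29.9 CPM and Ly86 from 23.6 to 0 CPM in the library labelled +/fl, so there these 3 rested on cells that are not epithelial. The part of myeloid RNA in the other values was not tested. The 811 cells were also deeper than the compared set, with medians of 12816 and 12281 against 9231 and 6872 UMIs. The 2 sets were not matched by class, and Mt3 was among the 10 leading genes of Aire-stage cluster 9. The part of depth and class in these ratios was not tested.

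Mcidas outside the Ciliated-like cluster was confined to 51 cells, and 18 of these had 2 or more UMIs. Of the 18 cells, 17 were from the library labelled fl/fl and 15 lay in Aire-stage cluster 10, in which 21 cells had the label +/fl and 1466 the label fl/fl. In those 15 cells Foxj1 was at 647 CPM (548 to 759), Ccno at 539 CPM, Deup1 at 216 CPM and Myb at 427 CPM. Cells of cluster 10 without Mcidas had 33.6, 2.23, 2.19 and 37.1 CPM of the same genes. Dynlrb2 was at 99.2 CPM (62.9 to 149) in the 15 cells and 1.07 CPM in the rest. Ccdc153, Tmem212 and Dnah5 had 0 UMIs in the 15 cells, with an upper bound of 15.9 CPM each. Aire, the factor that drives tissue antigens in mTECs, was at 414 CPM there and 672 CPM in the rest of the cluster. These 15 cells were picked by Mcidas after the data were seen, all come from 1 library, and have no counterpart to compare with in the library labelled +/fl.

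Trp73 cells outside the Ciliated-like cluster were most numerous in Immature cluster 8. Of 114 such cells, 31 lay there, 16 from the library labelled +/fl and 15 from that labelled fl/fl. Cells with 2 or more Trp73 UMIs numbered 1 and 0 among them, so this count rests mostly on single UMIs. In these 31 cells Mcidas, Dynlrb2, Tmem212 and Dnah5 had 0 UMIs, and Foxj1 was at 7.32 CPM against 6.26 CPM in the rest of the cluster. Zeros in so few cells say little, as these genes were rare in the class. All Immature mTECs held 0.147% and 0.555% of each library's Dynlrb2 UMIs. Krt5, a basal keratin, was at 1227 CPM in them and 1693 CPM in the rest. A further 24 Trp73 cells were in Aire-stage cluster 10, all from the library labelled fl/fl, and 8 of these had 2 or more Trp73 UMIs. Trp73 overlaps Trp73os and Gm26036 on the opposite strand, Tmem212 overlaps Gm26040 and Dnah9 overlaps Gm12296, while the other 6 genes overlap no annotated gene in GENCODE M21.

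Dnah5 alone of the 9 had most of its RNA in Tuft-like cells, chemosensory epithelial cells known for taste-pathway genes and for Trpm5. Dnah9 in turn had 57.7% and 51.7% of each library's UMIs in Aire-stage mTECs. In CPM, Dnah5 stood higher in Ciliated-like than in Tuft-like cells of both libraries. Pooled, its log2 ratio in Ciliated-like cells was 2.96 over other epithelium, Tuft-like cells included. In the library labelled +/fl, Dnah5 was at 94.7 CPM in Tuft-like cells (interval 90.6 to 98.9) and 4.71 CPM in epithelial cells that were neither Tuft-like nor Ciliated-like, a ratio of 20.1 (17.3 to 23.5). In the library labelled fl/fl it was at 80.9 CPM (74.4 to 87.8) against 4.78 CPM, a ratio of 16.9 (14.8 to 19.4). Tuft-like cells held 88.2% and 53.1% of each library's Dnah5 UMIs. It ranked 55 of 20104 genes for Tuft-like over other epithelium and was the 1 member of the 9 past 2-fold there, as were 8.69% of all genes. Tppp3 was closest among the rest, at a log2 ratio of 0.75, and Foxj1 and Dnah9 were lower in Tuft-like cells, at -2.09 and -1.89. T-lineage cells had Dnah5 in 1.19% and 0% of thinned cells (0 of 124 cells, upper bound 2.93%) and Tuft-like cells in 15.4% and 11.6%. Outside these classes, Secretory-like cells of the library labelled +/fl had 26.0 CPM from 21 UMIs, against 2.90 CPM in that labelled fl/fl.

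Tuft-like cells with Dnah5 seldom held the other genes of the 9, apart from Tppp3, which was in 44.5% of them and in 41.9% of Tuft-like cells without Dnah5. Of 849 cells with a Dnah5 UMI, 782 had none of the 7 other genes (Tppp3 set aside), which is 92.1%, and of all 2760 Tuft-like cells 91.6% had none. Up to 49 Dnah5 UMIs were counted in 1 cell, and 303 cells had 3 or more. Dynlrb2 was at 1.20 CPM in cells with Dnah5 and 1.32 CPM in cells without, and Foxj1 at 4.48 and 6.24 CPM. Myb was at 77.8 and 81.2 CPM in the same sets, and Rfx3 at 22.3 and 22.1 CPM.

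The 3 Tuft-like clusters differed in Dnah5. Cluster 13 was highest, with 145 CPM (138 to 153) in 1236 cells of the library labelled +/fl and 253 CPM (227 to 280) in 301 cells of that labelled fl/fl. Cluster 11 had 41.2 and 45.6 CPM, with intervals that overlap, and cluster 14 had 21.5 CPM (14.1 to 31.5) and 5.56 CPM (2.23 to 11.5). In CPM the library labelled fl/fl was therefore higher in cluster 13, close in cluster 11 and lower in cluster 14. In cluster 13, Dnah5 was detected in 41.4% and 39.9% of cells, at median depths of 7700 and 4066 UMIs. The part of depth in that CPM difference was not tested. For cluster 14 the value under the label fl/fl rests on 7 UMIs in 1.71% of 117 cells, with 6 of them in 1 cell. Cluster 13 was 1236 of 1911 Tuft-like cells in one library and 301 of 849 in the other.

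**Figure D4:**
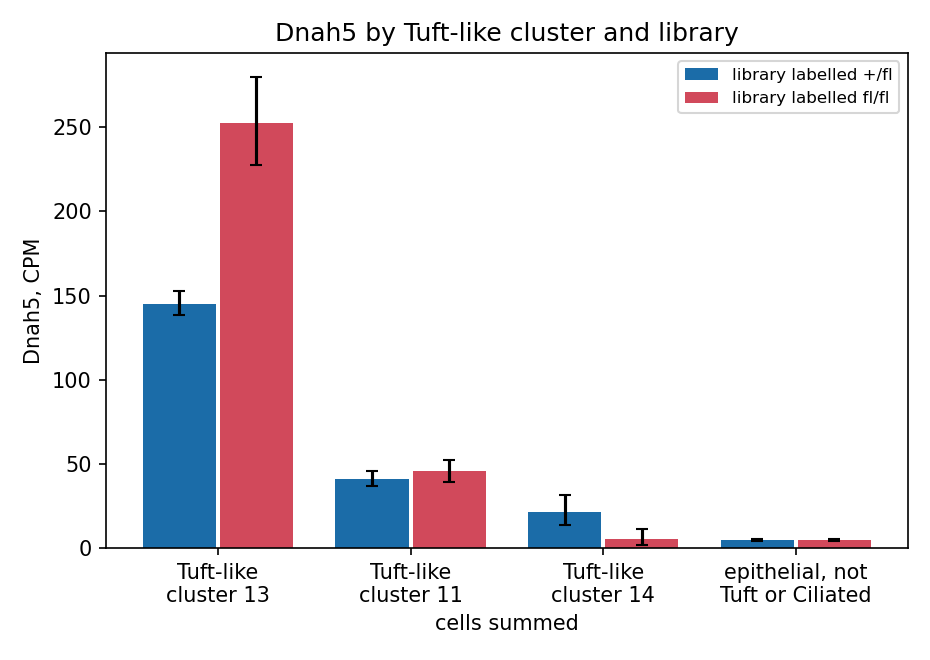
Dnah5 level in CPM in the 3 Tuft-like clusters and in epithelial cells that are neither Tuft-like nor Ciliated-like, by library; bars are sums over cells and error bars exact Poisson 95% intervals. Cluster 13 is highest in both libraries, at 145 and 253 CPM.

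Over the 23 clusters, the genes whose levels were most like those of Dnah5 (Pearson's r across clusters, genes with at least 50 UMIs, 18392 genes) were Gm47849, Rgs22, Togaram2, Gm47926 and Lrrc6, with r from 0.88 to 0.84. Foxj1 was most like Pifo (r = 0.91), then Mak, Gm35611, 1700013F07Rik and Dnah1. Mcidas was most like Deup1 (r = 0.97), followed by Gm45792, Ak7, Zmynd10 and Nags. Trp73 was most like Ppp1r36 (r = 0.88), then Ccno, Efhc2, Agbl2 and Lrrc71. The mean of all 9 was most like Zmynd10, an assembly factor of dynein arms (r = 0.98), then Cfap157, Gm41144, Cfap206 and Dnaaf1. Among the 9, the r between Foxj1 and Dnah5 was 0.29 and between Foxj1 and Tmem212 0.80. Clusters share libraries and differ in depth, and these values are descriptions.

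In the wider cilium lists, most genes were high in Ciliated-like cells and few in Tuft-like cells. Over all genes, 14.3% were at least 2-fold over other epithelium in Ciliated-like cells and 8.69% in Tuft-like cells. In Ciliated-like cells, 14 of 15 further dynein arm chains were at least 2-fold over other epithelium, as were 13 of 13 dynein assembly and docking factors with enough counts (of 14 listed), 14 of 14 genes of the radial spokes, central pair and nexin link, 26 of 26 genes of intraflagellar transport and 8 of 12 multiciliation regulators. Dnah17, a heavy chain known from sperm, was the dynein without UMIs there. In Tuft-like cells 0 of the 15 further dynein chains passed 2-fold. Of the assembly and docking list, Lrrc6 was at 77.0 CPM in Tuft-like cells, Ttc25 at 71.1 CPM and Dnaaf3 at 46.0 CPM, and these 3 passed. With 1 CPM added, their ratios over other epithelium were 25.9, 10.9 and 3.01. Rsph1 and Rsph9 of the radial spoke, Ift81, Kif3b and Wdr35 of intraflagellar transport, and Myb and Rfx3 of the regulators also passed. The lists thus differed in Tuft-like cells, beside 8.69% of all genes. Passing were 0 of 15 dynein chains, 3 of 13 assembly and docking factors and 2 of 14 radial spoke, central pair and nexin link genes. For intraflagellar transport it was 3 of 26 and for the regulators 2 of 12.

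Between the libraries, over all kept cells 7 of the 9 stood higher under the label fl/fl, against 56.1% of 20308 genes. Counts past 2-fold and log2 ratios here and below are taken after adding 1 CPM to both levels, while printed ratios of CPM have nothing added. The 9 genes had a median log2 ratio of 0.55 and all genes tested 0.06. Past 2-fold, 1 gene was higher (9.27% of genes) and 1 lower (2.20% of genes). Mcidas was the higher one, at 0.810 CPM (0.608 to 1.06) and 2.74 CPM (2.40 to 3.13), a ratio of 3.39 (2.51 to 4.65). Dnah5 was the lower one, at 33.8 CPM (32.4 to 35.2) and 13.3 CPM (12.5 to 14.1), a ratio of 0.393 (0.365 to 0.422).

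The regulators Foxj1 and Trp73 were at 19.2 and 34.5 CPM and at 0.870 and 1.72 CPM. Dynlrb2 was at 10.2 and 15.6 CPM, Tmem212 at 4.92 and 7.68 CPM and Dnah9 at 9.15 and 15.1 CPM, each with an interval of the ratio above 1. For Ccdc153, at 9.52 and 10.4 CPM, the interval of the ratio held 1 (0.986 to 1.21). Without the 75 Ciliated-like cells Ccdc153 was at 5.49 and 1.84 CPM, a ratio of 0.335 (0.274 to 0.406). Tppp3 stood lower under the label fl/fl, at 99.0 and 59.6 CPM. Of the 12 listed regulators, 8 stood higher and 4 lower, with a median log2 ratio of 0.22, and 1 passed 2-fold. That one, Gmnc, which is related to Mcidas, had 15 UMIs (0.225 CPM) and 168 UMIs (2.08 CPM), a ratio of 9.23 (5.44 to 16.9). Of its 183 UMIs, 3 were in Ciliated-like cells.

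Within Ciliated-like cells the differences were smaller. Of 9 genes, 5 stood higher under the label fl/fl (45.0% of 7860 genes) and 0 passed 2-fold in either direction (7.18% and 3.64% of genes). Foxj1 was at 708 CPM (626 to 799) and 664 CPM (611 to 721), which overlap. Dynlrb2 was at 1629 and 1280 CPM (ratio 0.786, interval 0.711 to 0.869), Tmem212 at 831 and 632 CPM (0.761, interval 0.661 to 0.878) and Tppp3 at 1336 and 1055 CPM (0.790, interval 0.707 to 0.882). The library labelled +/fl gives only 16 cells here, of which 8 had Mcidas, against 18 of 59.

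In Tuft-like cells 6 genes had enough counts, and 2 stood higher under the label fl/fl (53.2% of 14307 genes) with 0 past 2-fold (4.86% higher and 2.45% lower among all genes). Dnah5 there had a ratio of 0.854 (0.777 to 0.938), compared with 0.393 over all cells, beside the Tuft-like shares of 39.1% and 11.1%. In epithelial cells outside the Tuft-like class, 0 of the 9 passed 2-fold with 1 CPM added (9.11% and 1.32% of genes), while 7 of the 9 were higher by any amount (59.3% of genes). Mcidas there was nearest, at a log2 ratio of 0.98 with 1 CPM added and a ratio of CPM of 2.86 (2.06 to 4.07). The Dnah5 ratio there was 1.14 (0.977 to 1.34).

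**Figure D5:**
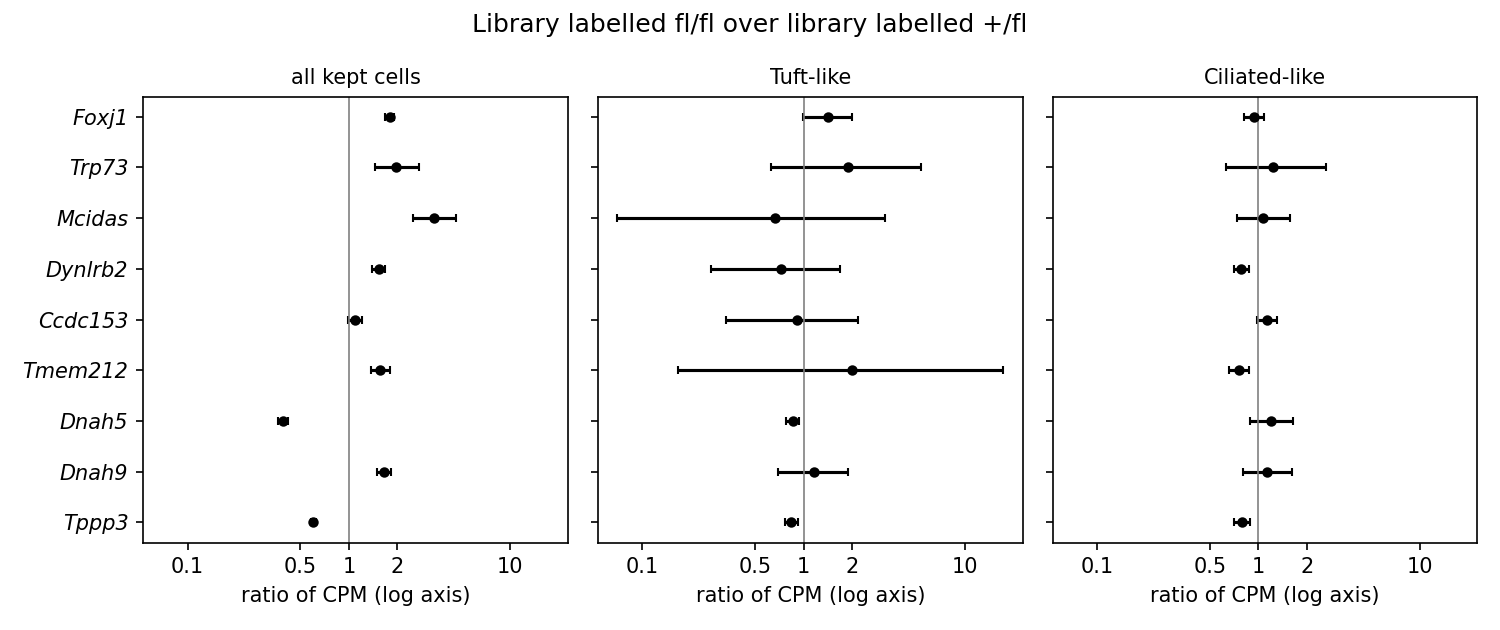
Ratio of CPM, library labelled fl/fl over library labelled +/fl, for each gene over all kept cells, Tuft-like cells and Ciliated-like cells (log axis, points with 95% counting intervals). Mcidas stands at 3.39 and Dnah5 at 0.393 over all cells, and in Ciliated-like cells they stand at 1.07 and 1.20 with intervals that hold 1.

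In Aire-stage mTECs 6 of the 9 genes stood higher by any amount under the label fl/fl (58.0% of 18691 genes), 1 passed 2-fold upward (13.8%) and 2 downward (3.03%) with 1 CPM added. The class came mostly from cluster 9 in the library labelled +/fl (733 of 813 cells) and from clusters 10 and 5 in that labelled fl/fl (1466 and 1011 of 2499), so the compared cells come from different clusters. Mcidas had 1 UMI and 90 UMIs, a ratio of 43.9 with a counting interval of 7.68 to 1753. With nothing added, the ratios of CPM were also above 2 for Trp73 (2 and 40 UMIs, 9.75, interval 2.53 to 83.3), Tmem212 (2 and 33 UMIs, 8.05, interval 2.06 to 69.2) and Dynlrb2 (11 and 61 UMIs, 2.70, interval 1.41 to 5.70), which rest on few UMIs in the library labelled +/fl. Ccdc153 was at 12.4 and 1.95 CPM, a ratio of 0.158 (0.117 to 0.210), and Tppp3 at 133 and 48.2 CPM. Of the Ccdc153 UMIs of that class in the library labelled +/fl, 190 of 195 were in cluster 9. Foxj1 was close to equal, at 32.9 and 37.9 CPM, and Dnah9 at 22.4 and 19.6 CPM. Among Immature mTECs, 6 genes had enough counts, of which 2 were higher by any amount (52.6% of genes) and 0 past 2-fold upward (1.78%), and Tppp3 passed 2-fold downward (1.22% of 12821 genes), at 46.6 and 22.6 CPM.

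Co-detection of axoneme genes over all cells depended on Tppp3, which was found in 29.4% of cells outside the Ciliated-like cluster. At 2000 UMIs, 1.66% (interval 1.31% to 2.08%) and 1.57% (1.29% to 1.89%) of cells had 2 or more of the 6 axoneme genes. Without Tppp3 the shares were 0.394% and 0.699%. The first measure does not separate the libraries and the second stands in the order of the Ciliated-like shares, 0.327% and 0.769%. Many cells of the first measure were not Ciliated-like. At full depth, 659 and 395 cells had exactly 2 of the 6 genes, and 342 and 78 of these were Tuft-like. The part of the Tuft-like share of each library in this measure was not tested.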

How the data were processed

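Each deposited matrix gives raw UMI counts. Cell Ranger and Seurat are the tools of the authors named in the submitters' processing notes. The matrix headers carry the version 3.1.0. The genome build is not given in the sources used here. The 9 genes and the lists were chosen with earlier results of these data known.

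Kept cells had at least 500 genes, 1000 UMIs and at most 15% mitochondrial UMIs. Scrublet marked 1 and 0 cells by its own threshold, so the highest scores were removed at 0.8% per 1000 cells (208 and 539 cells). This left 4891 of 7304 and 7669 of 11095 barcodes. Both libraries were clustered together (scanpy 1.11.5, 2000 variable genes without the 9 genes and 5 cilium lists, 30 components, 15 neighbours, Leiden resolution 1), giving 23 clusters named from marker lists. UMIs were summed over cells as CPM with exact Poisson intervals, shares carry Clopper-Pearson intervals, and log2 ratios have 1 CPM added. Genes needed 20 UMIs to be counted against a 2-fold change. Shares were thinned to 2000 UMIs per cell, leaving 4567 and 6872 cells. The scripts were tested on simulated data. No test was made, as genotypes have 1 library each. TMM factors came from edgeR 4.0.16.

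Genes named in the text are the 9 genes, members of the 5 cilium lists, the 5 genes most alike each of Foxj1, Trp73, Mcidas, Dnah5 and the mean of the 9, and the 10 leading genes of cells with a regulator and no axoneme gene. Aire and Krt5 were added after values were seen. Positions come from GENCODE M21 (GRCm38) and promoters from RefSeq (GRCm38.p6). Alternatives were other doublet, quality, clustering, depth and scaling choices.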

Additional observations from a re-analysis of the deposited data

Results flagged for a closer look

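Some genes had a ratio between the libraries (fl/fl label over +/fl label) whose counting interval lay above 1 in one class of cells and below 1 in another. The difference between classes was not tested, and each class has 1 library per genotype. Dnah5 was at a ratio of 1.59 in Aire-stage mTECs and below 1 in Tuft-like cells (0.854), unnamed cluster 1 (0.190) and unnamed cluster 4 (0.145). Dynlrb2 was at 2.70 in Aire-stage mTECs and 0.786 in Ciliated-like cells, and Tmem212 at 8.05 and 0.761 in the same classes. Foxj1 was at 1.15 in Aire-stage mTECs and 2.18 in unnamed cluster 1, against 0.737 in unnamed cluster 4. Dnah9 was at 1.68 in Immature mTECs and 0.388 in unnamed cluster 3.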

How the results depend on the processing

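No paired analysis was possible because each genotype has 1 library. All intervals cover counting error only. The number of genes higher in the library labelled fl/fl was 7, and 4 in Tuft-like cells alone when all 9 are counted (2 of the 6 with at least 20 UMIs). With 1 CPM added, the number past 2-fold was 2, 3 outside the Ciliated-like cluster, and 0 both in epithelial cells outside Tuft and in Tuft-like cells alone. Directions turned for Ccdc153, whose log2 ratio was -0.0681 with the stricter filter, -0.31 in epithelial cells outside Tuft, -1.19 outside the Ciliated-like cluster and -0.0712 in Tuft-like cells. They also turned for Dnah5 outside Tuft (0.17) and, in Tuft-like cells, for Mcidas (-0.15) and Dynlrb2 (-0.26).

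The share of cells with 2 or more axoneme genes (+/fl label first) was 0.654% and 0.808% at 1000 UMIs, 5.53% and 3.40% at 5000 UMIs, 15.6% and 6.53% without thinning, and 0.394% and 0.699% without Tppp3. Its order between the libraries thus depends on depth and on Tppp3, and the part of Tuft-like cells in it was not tested. Regulator cells with no axoneme gene were 53.8% and 65.1% at 5000 UMIs, 26.5% and 48.5% without thinning, 84.3% and 79.7% without Tppp3, where the order of the libraries turned, and 15.6% and 36.4% with 2 or more regulator UMIs. Outside the Ciliated-like cluster the share in the library labelled fl/fl was 81.2%.

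The Dnah5 ratio of Tuft-like cells over other epithelium was 13.4 with doublets kept and 28.1 as a mean over cells in the library labelled +/fl. In the library labelled fl/fl it was 13.1 with the stricter filter, 32.3 as a mean over cells and 9.81 for cells with 3 or more Tuft markers against none. The Ciliated-like share stayed within its interval under all 6 alternatives run. The restrictions to Tuft-like cells, to cells outside the Ciliated-like cluster and to epithelial clusters were chosen after seeing the data.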
